A study of Mus musculus with 8 samples.

Results

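A set of 36 genes of fatty acid oxidation, most of them known targets of the nuclear receptor PPAR alpha, was followed in RNA-seq libraries from 8 mouse livers of 3 Trp53 genotypes. The 36 genes were taken by name, out of 49585 genes in the count table. All 36 passed the filter on low counts that left 16496 genes for testing. They fall into 6 roles: 6 omega-hydroxylases of the Cyp4a family, 4 acyl-CoA thioesterases, 9 genes of peroxisomal oxidation, 5 of the carnitine shuttle, 7 of mitochondrial oxidation, and 5 of fuel use, uptake and regulation.

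The study asked how hepatocyte expression of the p53 missense mutant R245W, or loss of 1 Trp53 allele, affects the liver under a metabolic challenge. All animals were males and ate a choline-deficient diet rich in fat, from 21 days of age, over 3 months. The LP245/+ group (3 livers) carried an Alb-Cre transgene and 1 Trp53 wm-R245W allele, which encodes wild-type p53 until Cre recombination turns it into the mutant. The LPfl/+ group (2 livers) carried Alb-Cre and 1 floxed Trp53 allele, and the second allele was wild type in both groups. The LP+/+ group (3 livers) was labelled Alb-Cre0, that is without Cre, which would leave its conditional allele unrecombined, while the study's text describes this group as Alb-Cre carriers with wild-type p53. The sources differ here, and the labels were followed. The labelled allele was Trp53 fl in replicates 1 and 2 and Trp53 wm-R245W in replicate 3. Alb-Cre is driven by the albumin promoter and acts in hepatocytes and in cholangiocytes, which share a progenitor, so the other cells of the liver kept their original alleles. Whole liver tissue was sequenced, and in such samples fewer cells of a type and less RNA per cell cannot be told apart.

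The libraries held 26304526 to 31370714 counts, of which the 36 genes took 0.78% to 1.04%. Normalized read counts of Trp53 were 125 and 176 in LPfl/+ and 190 to 306 in the other 6 livers, and those of Cdkn1a, a classical p53 target, were 14 to 27 in LP245/+, 74 and 99 in LPfl/+ and 144 to 195 in LP+/+. The summed hepatocyte markers (7 of 8 listed symbols matched) ran from 3128435 to 4456788, and 4 of 5 adipocyte, 3 of 4 muscle and 3 of 5 pancreas markers stayed at or under 3 counts in every liver. The sample descriptions end in numbers that fall in 2 consecutive runs. The first held LP245/+ 1 to 3 and LP+/+ 2 and 3, and the second LP+/+ 1 and both LPfl/+ livers. These runs are called library series here, but the labels do not say what the numbers stand for. Neither series held both LP245/+ and LPfl/+, so between these genotypes series and genotype cannot be told apart except through LP+/+, of which 1 liver was in the second series. The first principal component of all genes, with 31.1% of the variance, placed the second series (26.7 to 42.7) apart from the first (-28.2 to -15.2).

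PPAR alpha is a receptor for fatty acids and their derivatives. It binds DNA as a heterodimer with a retinoid X receptor, at direct repeats of a hexamer spaced by a single base, and in hepatocytes it raises the genes that burn fatty acids, above all in fasting. Cyp4a enzymes oxidise the far (omega) end of the chain, peroxisomes shorten very long and dicarboxylic chains, the carnitine shuttle brings long-chain acyl groups into mitochondria, and mitochondrial beta-oxidation completes the breakdown. Cyp4a10 and Cyp4a14 are the members of the set known for the widest swings with receptor activity.

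The 6 Cyp4a genes lie within 322.6 kb of chromosome 4 (GRCm38, 115299046 to 115621602). Some are near copies, which limits how reads can be assigned to one of them. Cyp4a10, Cyp4a31 and Cyp4a32 each have a coding sequence of 1527 bases, and the 3 sequences differ in 77 columns. The 76-base stretch with the most differences among the 3, which is also the length of one read, is given here with the 11 differing columns in capitals. It covers coding bases 186 to 261, across the junction of coding exons 1 and 2 (Cyp4a10 at chr4:115518507-115519701, Cyp4a31 at chr4:115563902-115565081 and Cyp4a32 at chr4:115601160-115602331, plus strand, intron included in the span).
Cyp4a10: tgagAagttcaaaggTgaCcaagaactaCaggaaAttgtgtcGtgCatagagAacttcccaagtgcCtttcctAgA
Cyp4a31: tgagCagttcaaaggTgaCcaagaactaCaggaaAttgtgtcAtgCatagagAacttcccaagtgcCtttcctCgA
Cyp4a32: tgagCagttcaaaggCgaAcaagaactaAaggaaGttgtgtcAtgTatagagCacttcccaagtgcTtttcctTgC

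Across all 1452 such stretches the median number of differing columns was 3, and 97 stretches (6.7%) had none. Coding identity was 96.6% between Cyp4a10 and Cyp4a31, 97.2% between Cyp4a10 and Cyp4a32, and 98.5% between Cyp4a12a and Cyp4a12b. Cyp4a14 is set apart: it shared 74.8% to 75.8% of coding positions with the other 5, and 100% of its 76-base stretches occurred in no other gene, against 81.3% for Cyp4a10, 86.4% for Cyp4a31, 70.1% for Cyp4a32, 59.4% for Cyp4a12a and 58.9% for Cyp4a12b. Counts of Cyp4a14 can therefore be read singly, while those of Cyp4a12a and Cyp4a12b in particular depend on whether shared reads were assigned or left out. The study's reads were paired, and each stretch here stands for a single read.

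Promoter windows from RefSeq (GRCm38.p6, 250 bases before to 50 after the start) were found for 26 of the 36 genes, 29 windows in all. A direct repeat of AGGTCA with 1 base between the copies, the type of element PPAR alpha dimers bind, was searched on both strands with at most 2 mismatches over its 12 fixed bases. It was found in 5 of the 29 windows (17.241%), against 3.86% of 32851 windows of all genes. The 5 matches are shown because they are the places in these windows that most resemble the receptor's element, with the match in capitals and, upstream of the start, up to 20 flanking bases on each side, written along the gene's strand.
Fabp1 (chr6:71199792-71199844, plus): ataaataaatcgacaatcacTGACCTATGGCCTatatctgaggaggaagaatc
Acot4 (chr12:84038346-84038378, plus): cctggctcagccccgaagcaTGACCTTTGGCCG
Cd36 (chr5:17835927-17835979, minus): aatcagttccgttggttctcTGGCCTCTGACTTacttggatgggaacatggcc
Creb3l3 (chr10:81092768-81092820, minus): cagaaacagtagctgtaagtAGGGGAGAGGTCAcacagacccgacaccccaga
Slc25a20 (chr9:108662142-108662154, plus): AGGTGAAAGGTCG

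The Fabp1 match, at 67 to 55 bases before the start and on the opposite strand, had 1 mismatch, and the other 4 had 2. In Acot4 the match ended at the last base before the start, and in Slc25a20 it lay 7 to 19 bases into the transcript. A match describes the letters of a window and is not a test of binding. Windows of Cyp4a10, Cyp4a14, Cyp4a31, Cyp4a12a, Cyp4a12b, Hsd17b4, Vnn1, Decr1, Crat and Abcd2 were not used here.

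Among the 36 genes, 0 were called different in any of the 3 comparisons, where a call needed a log2 fold change of 1 or more in size and an adjusted p not above 0.05 (edgeR's quasi-likelihood test with Benjamini-Hochberg adjustment over all 16496 genes). The share of all tested genes called was 0.00606% for LP245/+ against LP+/+ and 0.0% for LPfl/+ against LP+/+ and for LP245/+ against LPfl/+. DESeq2 also called 0 of the 36 in each comparison, and of all genes it called 0.0331%, 0.0298% and 0.185%, in the same order. The median log2 fold change of the 36 was -0.06 in LP245/+ against LP+/+, -0.12 in LPfl/+ against LP+/+ and 0.09 in LP245/+ against LPfl/+, with a median over all genes of 0.00 in each. In LP245/+ against LP+/+ the standard error of the 36 log2 fold changes ran from 0.10 to 1.02 (Cyp4a14) with a median of 0.19, so the smallest differences these livers could show differed widely among the genes. No record states that the livers of a group came from separate litters or cages, so the p-values measure the spread between these samples, which may be partly technical.

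**Figure D1:**
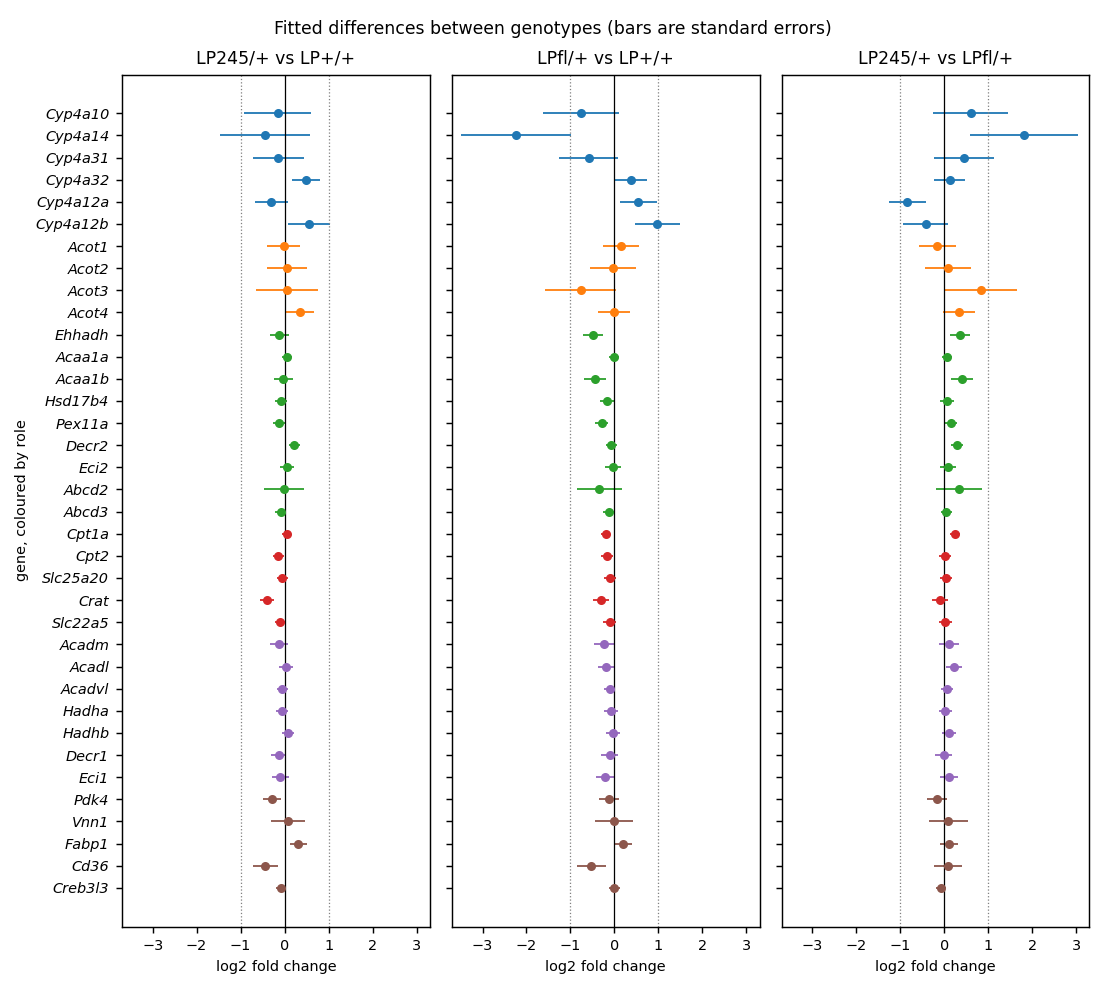
Log2 fold changes (x axis) of the 36 genes (y axis, coloured by role) in the 3 comparisons of genotypes, with standard errors as bars; dotted lines mark a log2 fold change of 1 in each direction. The Cyp4a genes and Acot3 have the widest bars, and Cyp4a14 reaches -2.24 in LPfl/+ against LP+/+ with a standard error of 1.25.

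Without adjustment, 1 of the 36 had a p below 0.05 in LP245/+ against LP+/+, and it was lower. Of all genes tested, 2.38% were lower and 3.55% higher at that p. In both LPfl/+ against LP+/+ (4.22% of all genes higher, 2.67% lower) and LP245/+ against LPfl/+ (4.07% higher, 4.44% lower), 0 of the 36 reached it. With DESeq2 the counts at that p were 0 higher and 1 lower in LP245/+ against LP+/+ (1.49% and 1.21% of all genes), 0 higher and 2 lower in LPfl/+ against LP+/+ (1.61% and 1.52%), and 2 higher and 0 lower in LP245/+ against LPfl/+ (2.1% and 2.01%).

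The wide differences in the set lay between livers of the LP+/+ group. LP+/+ replicate 1 was the lowest of the 8 livers for 24 of the 36 genes (66.7%, against 12.5% of all genes tested). LP+/+ replicate 3 was the highest for 20 of the 36 (55.6%, against 9.8% of all genes). In log2 units relative to each gene's mean over the 8 livers, the median of the 36 genes was -0.30 in LP+/+ replicate 1, 0.10 in replicate 2 and 0.31 in replicate 3, and between -0.10 and 0.08 in the 5 livers of LPfl/+ and LP245/+. The median ratio of the highest to the lowest liver was 1.79 for the 36 genes and 1.61 for all genes, and by role it was 6.46 for omega-hydroxylases, 4.26 for thioesterases, 2.02 for fuel use, uptake and regulation, 1.57 for mitochondrial oxidation, 1.44 for peroxisomal oxidation and 1.31 for the carnitine shuttle.

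**Figure D2:**
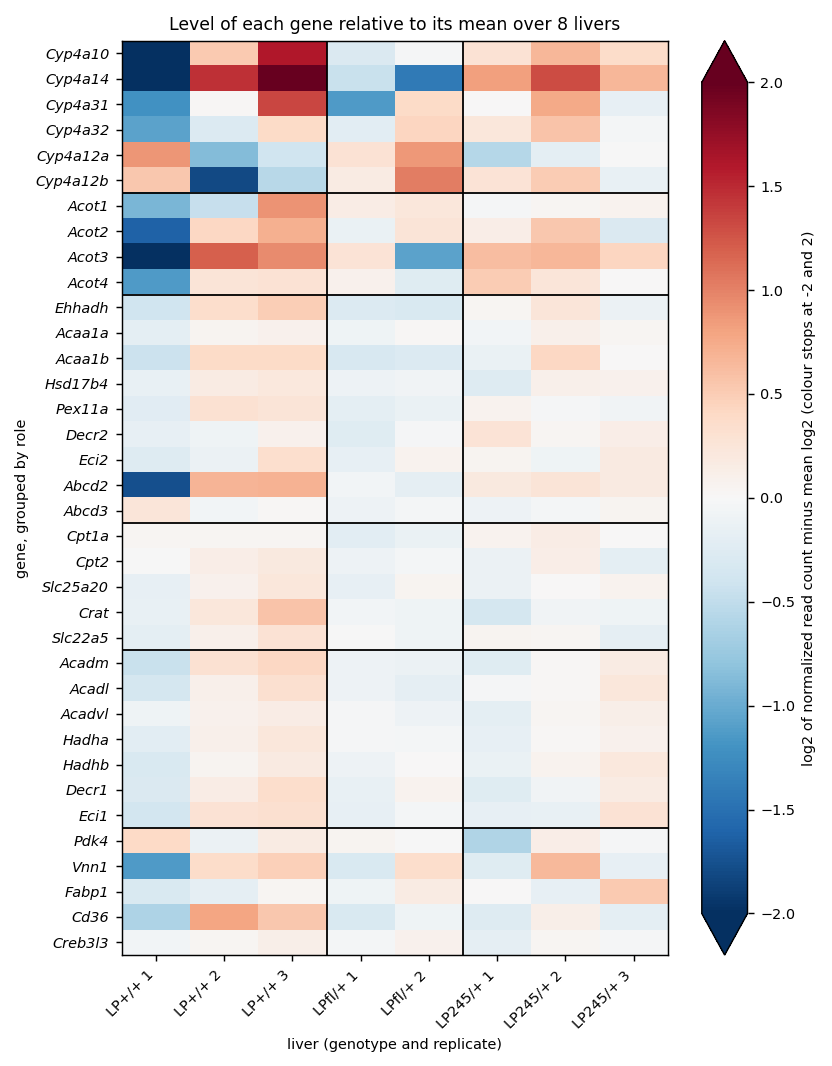
Each row is 1 of the 36 genes, grouped by role, and each column a liver; colour is the log2 normalized read count minus the gene's mean log2 over the 8 livers, in log2 units, and stops at -2 and 2. The LP+/+ 1 column is blue for most rows, with Cyp4a10, Cyp4a14, Acot3 and Abcd2 the most intense in that column. The LP+/+ 3 column is red for most rows.

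Other features of LP+/+ replicate 1 also differed from the other livers. Its summed clock genes (12 of 12 matched) came to 8050 normalized counts, against 9451 to 15165 in the other livers. That sum mixes genes that went both ways and includes the steadier Clock (3496, against 2960 to 3734), so it gives no direction. In this liver Dbp, a clock output gene, was at 23.2 against 51.5 to 667, and Arntl, a core clock activator, at 1073 against 236 to 831. Its summed fasting and feeding genes reached 150067, against 59895 to 133412 in the other livers, with the gluconeogenic G6pc at 32735 against 8775 to 25614 and Igfbp1 at 3234 against 429 to 1391. Members of that list did not all point one way, so its sum gives no direction either. The gluconeogenic Pck1 was 57263 in this liver, below LP+/+ replicates 2 and 3 (71007 and 72640), and the genes of the fed state Pnpla3 (214 against 16.0 to 89.6) and Fasn (38741 against 10893 to 43783) were at or near the top. Its hepatocyte marker sum of 3207470 lay within the range of the other livers. The part of these states in the oxidation genes was not tested.

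The omega-hydroxylases were the most variable role. Cyp4a14, the member of this role with the highest level per length (mean 179.8 TPM, counts scaled by exon length and by library), had normalized read counts of 118, 8610 and 16177 in LP+/+ replicates 1 to 3, 2298 and 1185 in LPfl/+, and 5535, 7736 and 4975 in LP245/+. The range within LP+/+ was 137-fold and enclosed all 5 other livers, and the LP245/+ and LPfl/+ values did not overlap. The log2 fold change was -0.44 (SE 1.02) in LP245/+ against LP+/+, -2.24 (SE 1.25) in LPfl/+ against LP+/+ and 1.81 (SE 1.22) in LP245/+ against LPfl/+, with adjusted p of 0.963, 0.757 and 0.733 (edgeR's quasi-likelihood test with Benjamini-Hochberg adjustment).

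Cyp4a10 followed the same order of livers in LP+/+, with normalized read counts of 368, 4625 and 9824. The LPfl/+ livers had 2641 and 3162, and the LP245/+ livers 3947, 5093 and 4146. As for Cyp4a14, the LP+/+ livers spanned all others, while LP245/+ stood above LPfl/+ without overlap. Its log2 fold changes were -0.16 (SE 0.76), -0.76 (SE 0.87) and 0.60 (SE 0.86) in the 3 comparisons, in the order above.

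Cyp4a31 was the lowest of the 36 genes per length (1.42 TPM), with normalized read counts of 16.4, 38.4 and 96.0 in LP+/+ livers, 17.2 and 49.5 in LPfl/+ and 38.2, 63.7 and 33.6 in LP245/+. Cyp4a32 had 235, 408 and 642 in LP+/+ livers, 429 and 669 in LPfl/+ and 577, 736 and 479 in LP245/+. Both had their lowest value in LP+/+ replicate 1, and the 3 genotypes overlapped. With the counts of Cyp4a10, Cyp4a31 and Cyp4a32 summed, the log2 fold changes were -0.09 (SE 0.68), -0.63 (SE 0.77) and 0.53 (SE 0.77). The sum sets aside how counted reads were split among the 3, but does not regain shared reads that were counted for none.

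Cyp4a12a and Cyp4a12b, arachidonic acid omega-hydroxylases expressed mainly in male mice, ran the other way among the LP+/+ livers. Cyp4a12a had normalized read counts of 2119, 626 and 873 in LP+/+ livers, 1396 and 2084 in LPfl/+ and 773, 998 and 1145 in LP245/+. Cyp4a12b had 366, 72.0 and 171 in LP+/+ livers, 282 and 509 in LPfl/+ and 303, 358 and 226 in LP245/+. LP+/+ replicate 1 was thus the highest LP+/+ liver for both genes, and 2.83-fold and 3.01-fold above the mean of LP+/+ replicates 2 and 3. For the summed pair the log2 fold change was -0.14 (SE 0.39), 0.61 (SE 0.42) and -0.75 (SE 0.42) in the 3 comparisons, with a smallest adjusted p of 0.673.

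**Figure D3:**
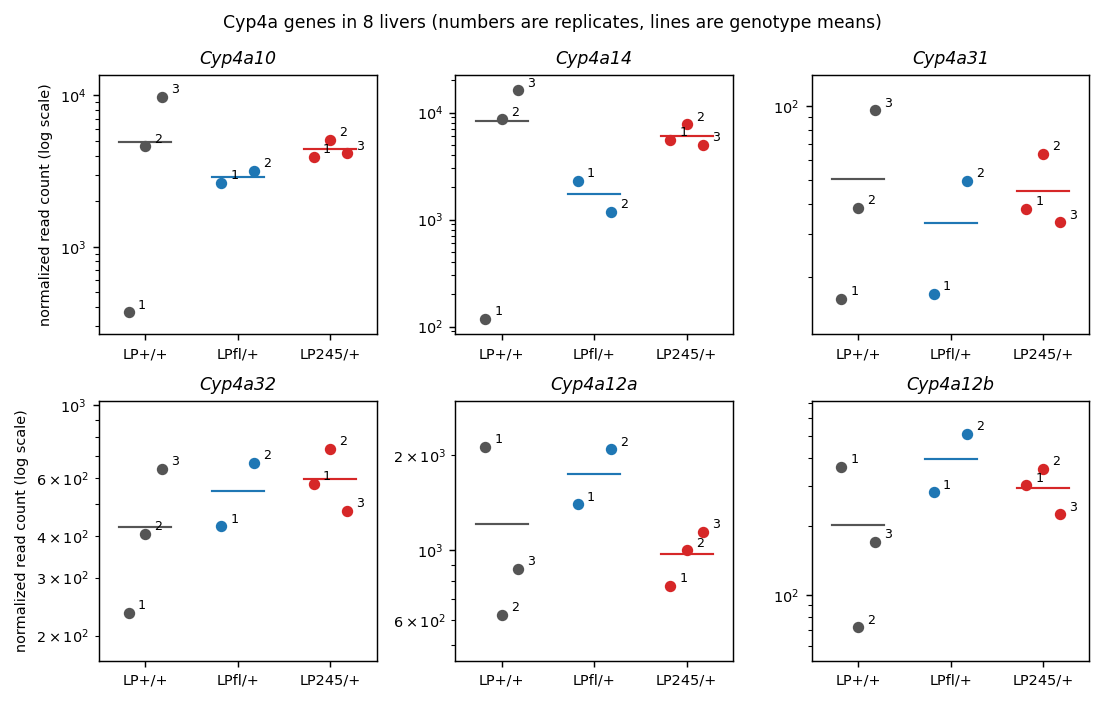
Normalized read counts (y axis, log scale) of the 6 Cyp4a genes by genotype (x axis), 1 point per liver with its replicate number and a line at the genotype mean. LP+/+ 1 is far below the other livers for Cyp4a10 (368) and Cyp4a14 (118) and is the highest of all 8 livers for Cyp4a12a (2119).

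The 4 acyl-CoA thioesterases, which release free fatty acids from acyl-CoA, lie within 72.5 kb of chromosome 12 (GRCm38, 83987861 to 84060402) and were among the lowest members per length, from 2.07 TPM for Acot4 to 6.32 TPM for Acot1. Acot1, the cytosolic enzyme, had normalized read counts of 154, 210 and 541 in LP+/+ livers, 321 and 339 in LPfl/+ and 284, 298 and 303 in LP245/+. The LP245/+ and LPfl/+ livers were close together and did not overlap (log2 fold change -0.16, SE 0.42), and LP+/+ spanned both. Between 73.7% and 98.3% of 76-base stretches were particular to a single gene in this cluster, and exons of Acot3 and Acot4 overlap those of Gm49366.

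Acot3, a peroxisomal thioesterase, had 16.4, 310 and 262 in LP+/+ livers, 163 and 64.6 in LPfl/+ and 207, 215 and 183 in LP245/+. LP+/+ replicate 1 again had the lowest value, 17.4-fold below the mean of the other LP+/+ livers, and each LP245/+ liver was above each LPfl/+ liver (log2 fold change 0.83, SE 0.82). Acot2, the mitochondrial enzyme, was 4.54-fold and Acot4 2.65-fold higher in LP+/+ replicates 2 and 3 than in replicate 1. The summed counts of all 4 gave log2 fold changes of 0.09 (SE 0.38), -0.11 (SE 0.43) and 0.19 (SE 0.43).

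Of the 9 peroxisomal genes, all had a negative fitted log2 fold change in LPfl/+ against LP+/+ (-0.48 to -0.01) and a positive one in LP245/+ against LPfl/+ (0.05 to 0.41). Of all genes tested, 49.8% and 50.8% were positive in these comparisons. The signs were not particular to this role: 31 of the 36 members were negative in the first comparison and 29 positive in the second. All 5 genes of the carnitine shuttle and all 7 of mitochondrial oxidation were also negative in the first. Both signs rest on the same 2 LPfl/+ livers. With the library series as a covariate, 8 of the 9 were positive in LPfl/+ against LP+/+. In the fit of all livers, 0 of the 9 had an unadjusted p below 0.05 with edgeR. DESeq2 gave such a p to Ehhadh (0.027) and Acaa1b (0.0474) in LPfl/+ against LP+/+ and to Decr2 (0.0405) in LP245/+ against LPfl/+. Acaa1b, a peroxisomal thiolase and the highest of the role (593.1 TPM), had normalized read counts of 10354, 18258 and 18191 in LP+/+ livers, 11215 and 11521 in LPfl/+ and 12752, 18612 and 14001 in LP245/+. LP+/+ replicate 1 stood beside the LPfl/+ livers, and the other LP+/+ livers beside the highest LP245/+ liver. The log2 fold change in LPfl/+ against LP+/+ was -0.45 (SE 0.25). Acaa1a, its near copy with 96.5% coding identity, stayed between 2240 and 2757 in all 8 livers.

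Ehhadh, the peroxisomal bifunctional enzyme and a classical PPAR alpha target, had 5437, 9138 and 10092 in LP+/+ livers, 5938 and 5809 in LPfl/+ and 7374, 8465 and 6652 in LP245/+. Its log2 fold change in LPfl/+ against LP+/+ was -0.48 (SE 0.23), with an unadjusted p of 0.0694 and an adjusted p of 0.748 (edgeR's quasi-likelihood test with Benjamini-Hochberg adjustment). Pex11a, which promotes peroxisome division, repeated this order of groups at smaller size, with 1111, 1602 and 1554 in LP+/+ livers, 1135 and 1180 in LPfl/+ and 1354, 1272 and 1234 in LP245/+ (log2 fold change -0.29, SE 0.15, in LPfl/+ against LP+/+).

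Abcd2, a peroxisomal transporter of very long-chain acyl-CoA, ranged 5.47-fold, the widest outside the Cyp4a and Acot families. It had 322, 1753 and 1759 normalized counts in the LP+/+ livers, 1046 and 959 in LPfl/+ and 1249, 1302 and 1231 in LP245/+. The LP+/+ livers fell on both sides of the tight LPfl/+ and LP245/+ values, and all LP245/+ livers were above both LPfl/+ livers. The related transporter Abcd3, by contrast, was highest in LP+/+ replicate 1 (20529) and between 16178 and 17973 elsewhere.

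Decr2, the peroxisomal dienoyl-CoA reductase, had 5973, 6303 and 7107 in LP+/+ livers, 5658 and 6563 in LPfl/+ and 8119, 6890 and 7348 in LP245/+. LP245/+ stood above LPfl/+ in every liver (log2 fold change 0.29, SE 0.13, adjusted p 0.591, edgeR's quasi-likelihood test with Benjamini-Hochberg adjustment). Hsd17b4 and Eci2, the other enzymes of the role, had highest-to-lowest ratios of 1.39 and 1.51.

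The carnitine shuttle was the steadiest role. Cpt1a, the carnitine palmitoyltransferase that sets the rate of mitochondrial entry, had normalized read counts of 12762, 12796 and 12733 in LP+/+ livers, 10762 and 11346 in LPfl/+ and 13079, 13817 and 12465 in LP245/+. The LP+/+ livers were nearly equal, and both LPfl/+ livers were below all others. The fitted log2 fold change was 0.25 (SE 0.11) in LP245/+ against LPfl/+, with an unadjusted p of 0.0527 and an adjusted p of 0.583 (edgeR's quasi-likelihood test with Benjamini-Hochberg adjustment). DESeq2 gave Cpt1a an unadjusted p of 0.0226 and an adjusted p of 0.476 in that comparison.

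Crat, carnitine acetyltransferase, was the only one of the 36 genes with an unadjusted p below 0.05 in the edgeR fit of all livers. It had 1345, 1743 and 2201 in LP+/+ livers, 1428 and 1399 in LPfl/+ and 1165, 1421 and 1401 in LP245/+. LP+/+ replicate 1 lay inside the LP245/+ range. The log2 fold change in LP245/+ against LP+/+ was -0.40 (SE 0.16), with an unadjusted p of 0.0353 and an adjusted p of 0.818 (edgeR's quasi-likelihood test with Benjamini-Hochberg adjustment). Cpt2, Slc25a20 and Slc22a5, which act at the inner membrane and in carnitine uptake, had fitted log2 fold changes between -0.17 and 0.04 in all 3 comparisons.

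Every gene of mitochondrial beta-oxidation but Acadvl was lowest in LP+/+ replicate 1. Acadm, the medium-chain acyl-CoA dehydrogenase and the highest of this role (228.1 TPM), had 7952, 13427 and 14429 in LP+/+ livers, 10134 and 9979 in LPfl/+ and 9179, 11044 and 12149 in LP245/+. LPfl/+ and LP245/+ lay within the span of LP+/+ (log2 fold change -0.24, SE 0.23, in LPfl/+ against LP+/+). Across the 7 genes the fitted values ran from -0.13 to 0.07 in LP245/+ against LP+/+, from -0.24 to -0.03 in LPfl/+ against LP+/+ and from -0.01 to 0.22 in LP245/+ against LPfl/+. Hadha and Hadhb, the subunits of the trifunctional protein, lie on opposite strands of chromosome 5, with 272 bases between their RefSeq starts. The GENCODE genes are closer, with Hadha ending at 30155162 and Hadhb starting at 30155248. Their livers ranged 1.35-fold and 1.43-fold. Hadhb shares reads with Gm13910 and Gm9108 (43.0% of its 76-base stretches were its own).

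Fabp1, the liver fatty acid binding protein, was the highest of all 36 genes (15900 TPM), with normalized read counts of 86413, 94232 and 110451 in LP+/+ livers, 101314 and 120578 in LPfl/+ and 108411, 95423 and 154318 in LP245/+. The genotypes overlapped, and LP245/+ replicate 3 was the highest liver (log2 fold change 0.31, SE 0.19, in LP245/+ against LP+/+). Cd36, a fatty acid uptake receptor, had 1532, 4061 and 3391 in LP+/+ livers, 1900 and 2218 in LPfl/+ and 1960, 2544 and 2048 in LP245/+ (log2 fold change -0.53, SE 0.33, in LPfl/+ against LP+/+). As for Acadm, the livers of LPfl/+ and LP245/+ were inside the LP+/+ span.

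Vnn1, a pantetheinase and a sensitive PPAR alpha target, had 528, 1493 and 1610 in LP+/+ livers, 930 and 1464 in LPfl/+ and 969, 1810 and 1023 in LP245/+, with LP+/+ replicate 1 below all others. Pdk4, which restrains glucose oxidation, was highest in that liver at 311 and between 154 and 264 in the rest. Creb3l3, a hepatic transcription factor that acts with PPAR alpha, was the steadiest of the 36, with a highest-to-lowest ratio of 1.22.

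Counts of genes whose genotypes did not overlap at all differed by comparison. In LP245/+ against LP+/+, 0 of the 36 were higher and 0 lower in every liver (6.03% and 5.79% of all genes tested). In LPfl/+ against LP+/+, 2 were lower in every liver (Cpt1a and Cpt2, where 13.2% of all genes were) and 0 higher (11.9%). In LP245/+ against LPfl/+, 10 were higher in every liver (Cyp4a10, Cyp4a14, Acot3, Ehhadh, Acaa1b, Pex11a, Decr2, Abcd2, Cpt1a and Acadl, where 12.1% of all genes were) and 2 lower (Cyp4a12a and Acot1, where 13.3% were). LP245/+ and LPfl/+ came from different library series, and none of these 12 genes passed the test.

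How the LPfl/+ comparisons came out depended on LP+/+ replicate 1. Each liver was left out in turn, and this one is shown because it was the lowest for most of the 36. Leaving it out narrows the LP+/+ spread of those genes by construction, so the p-values below are not independent support. Without that liver, 12 of the 36 were lower and 2 higher at an unadjusted p below 0.05 in LPfl/+ against LP+/+ (4.79% and 6.88% of all genes), and 8 were lower and 1 higher in LP245/+ against LP+/+ (2.53% and 4.17%). Cyp4a14 then passed the cutoff in LPfl/+ against LP+/+ with a log2 fold change of -2.82 (SE 0.37, adjusted p 0.0124, edgeR's quasi-likelihood test with Benjamini-Hochberg adjustment), where 0.362% of all genes did (0.288% in LP245/+ against LPfl/+, with 0 members), and Abcd2 had -0.80 (SE 0.11, adjusted p 0.0151). In that fit every LP+/+ liver belonged to the first library series and every LPfl/+ liver to the second. In LP245/+ against LPfl/+ it gave 6 higher and 1 lower (4.84% and 5.51% of all genes).

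With the library series as a covariate, LPfl/+ was in effect set against LP+/+ replicate 1 alone, and the direction turned. By construction, that fit leaves the gap between replicate 1 and the other LP+/+ livers out of the spread. With 1 control liver in the second series, the p-values and calls below for the LPfl/+ comparisons are not independent support. In LPfl/+ against LP+/+, 9 of the 36 were then higher and 0 lower at an unadjusted p below 0.05 (2.95% and 2.42% of all genes), with Cyp4a14 at 3.89 (SE 0.56), Cyp4a10 at 2.99 (SE 0.42) and Abcd2 at 1.65 (SE 0.15, adjusted p 0.00489, past the cutoff, where 0.0182% of all genes were). In LP245/+ against LPfl/+, 14 were lower and 0 higher (2.7% and 2.58%), and 3 passed the cutoff (0.0606% of all genes): Cyp4a14 at -4.91 (adjusted p 0.0353), Cyp4a10 at -3.69 (adjusted p 0.0367) and Abcd2 at -2.11 (adjusted p 0.00493, edgeR's quasi-likelihood test with Benjamini-Hochberg adjustment). The direction of these genes in LPfl/+ against LP+/+ was the same with and without LP+/+ replicate 1 and, among these 3 fits, turned in the one with the covariate, where 28 of the 36 changed sign (77.8%, against 26.8% of all genes). LP245/+ against LP+/+ had 0 members past the cutoff in all 3 fits (0.0184% of all genes without that liver and 0.0182% with the covariate). With the covariate, 8 members were lower and 1 higher at an unadjusted p below 0.05 in LP245/+ against LP+/+ (2.52% and 4.13% of all genes). For this comparison the fits with the covariate and without LP+/+ replicate 1 both set LP245/+ against LP+/+ replicates 2 and 3. Their like results are therefore 1 comparison and not 2, and the ratios within the first series below rest on the same livers.

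**Figure D4:**
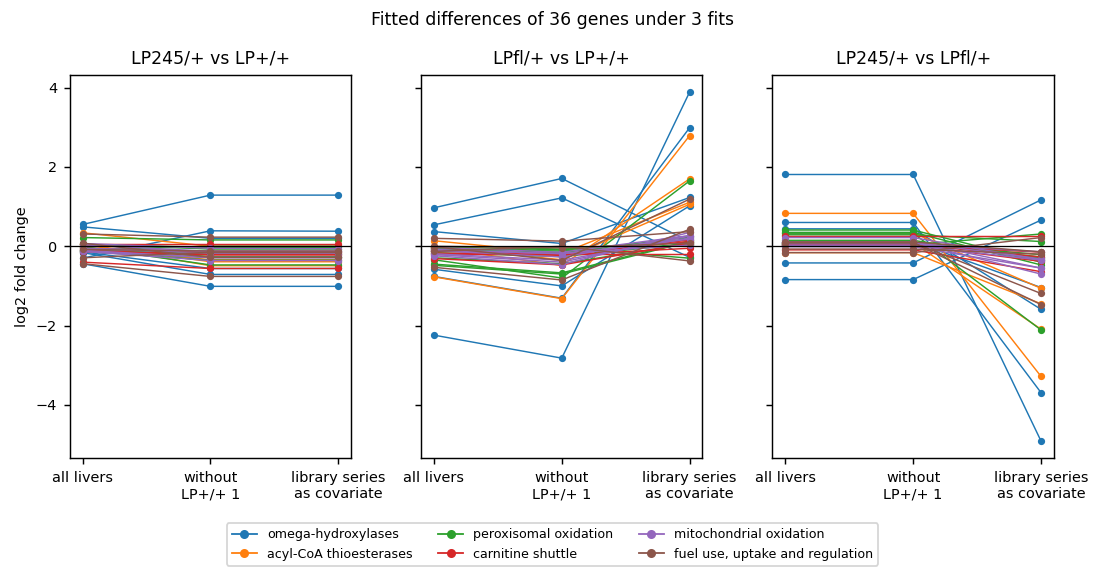
Fitted log2 fold changes (y axis) of the 36 genes, 1 line per gene coloured by role, with all 8 livers, without LP+/+ replicate 1 and with the library series as a covariate (x axis), in the 3 comparisons. In both LPfl/+ comparisons most lines cross 0 at the last fit, where Cyp4a14 goes from -2.24 to 3.89 in LPfl/+ against LP+/+ and from 1.81 to -4.91 in LP245/+ against LPfl/+.

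Within the first series alone, where LP245/+ can be set against LP+/+ replicates 2 and 3, log2 ratios of the group means were -0.72 for Cyp4a10, -1.03 for Cyp4a14, -0.48 for Abcd2, -0.77 for Cd36 and -0.57 for Crat. The widest ratio was in the other direction, 1.28 for Cyp4a12b, with Cyp4a12a at 0.37. The Crat livers of these 2 genotypes did not overlap in that series, at 1165 to 1421 against 1743 and 2201. Crat was not alone in this: Cyp4a14, Abcd2 and Cd36 were among others lower in every LP245/+ liver, and Cyp4a12b was higher. The share of all genes without overlap in that series was not counted, so no result about these genes is drawn from it. Within the second series, both LPfl/+ livers could be set only against LP+/+ replicate 1, with ratios of 2.98 for Cyp4a10, 3.89 for Cyp4a14, 1.64 for Abcd2 and 0.07 for Crat, a comparison that rests on 1 control liver.

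Other genes of the pathway were read in the same fit. Of 106 other listed genes (regulators, ketone body synthesis, further oxidation and uptake genes, and other PPAR alpha targets), 102 were tested and 0 passed the cutoff with edgeR, while DESeq2 called 1, Fgf21 in LP245/+ against LPfl/+. At an unadjusted p below 0.05, 1 was higher and 2 lower in LP245/+ against LP+/+ (3.55% and 2.38% of all genes), 0 and 3 in LPfl/+ against LP+/+ (4.22% and 2.67%), and 7 and 1 in LP245/+ against LPfl/+ (4.07% and 4.44%). None of the 4 ketone body genes, 14 other mitochondrial genes, 14 acyl-CoA synthesis and uptake genes or 10 other omega-oxidation genes tested reached that p in any comparison.

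Ppara itself had normalized read counts of 4525, 6305 and 5646 in LP+/+ livers, 4366 and 4718 in LPfl/+ and 5664, 6022 and 6127 in LP245/+. All LP245/+ livers were above both LPfl/+ livers, with LP+/+ replicate 1 between the LPfl/+ values. The log2 fold change in LP245/+ against LPfl/+ was 0.39 (SE 0.15, adjusted p 0.525, edgeR's quasi-likelihood test with Benjamini-Hochberg adjustment).

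Fgf21, a hepatokine and PPAR alpha target, was named for its small p in its list and was the clearest exception. It had 118, 117 and 126 in LP+/+ livers, 74.0 and 68.7 in LPfl/+ and 227, 190 and 217 in LP245/+, so that the 3 genotypes did not overlap and LP+/+ replicate 1 did not stand apart. The log2 fold change was 0.82 (SE 0.15) in LP245/+ against LP+/+, -0.75 (SE 0.17) in LPfl/+ against LP+/+ and 1.57 (SE 0.17) in LP245/+ against LPfl/+. With edgeR's quasi-likelihood test the adjusted p was 0.794, 0.697 and 0.0818, in that order, and the last was 1.4e-07 with DESeq2. Of all genes tested, 6.03%, 13.2% and 12.1% lacked overlap in the same directions. Me1, malic enzyme, was lowest in LPfl/+ (2186 and 2098, against 3027 to 3683 in LP+/+ and 2810 to 3082 in LP245/+), as was the peroxisomal membrane gene Pex11g (379 in both, against 420 to 533 and 501 to 536). Lpin1, a coactivator of PPAR alpha, was 14094, 6192 and 7910 in LP245/+, 4841 and 1903 in LPfl/+ and 4201, 4266 and 8329 in LP+/+.

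**Figure D5:**
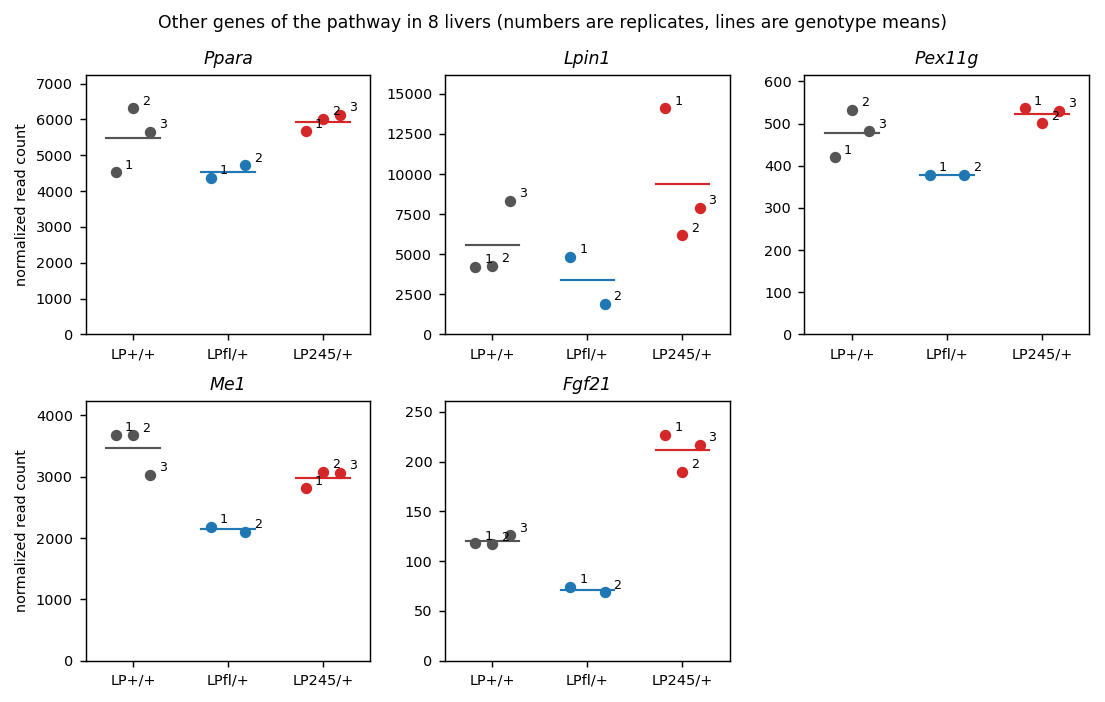
Normalized read counts (y axis, from 0) of 5 other genes of the pathway by genotype (x axis), 1 point per liver with its replicate number and a line at the genotype mean. Fgf21 separates the 3 genotypes, with 68.7 and 74.0 in LPfl/+, 117 to 126 in LP+/+ and 190 to 227 in LP245/+, and Ppara, Pex11g and Me1 are lowest on average in LPfl/+.

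Clock genes differed between livers as well, and 0 of 12 passed the cutoff in any comparison (edgeR). At an unadjusted p below 0.05, 7 of 12 were higher and 2 lower in LP245/+ against LP+/+ (3.55% and 2.38% of all genes), 7 higher and 2 lower in LP245/+ against LPfl/+ (4.07% and 4.44%), and 0 in LPfl/+ against LP+/+. Their smallest adjusted p was 0.794, 0.362 and 0.797 in these comparisons (edgeR's quasi-likelihood test with Benjamini-Hochberg adjustment). Dbp was 267 to 667 in LP245/+, 51.5 and 64.8 in LPfl/+ and 23.2 to 221 in LP+/+. Several genes of fatty acid oxidation are known to vary over the day, and the part of time of day in their levels here was not tested.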

How the data were processed

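RNA-seq measured 8 livers: 3 LP245/+, 2 LPfl/+ and 3 LP+/+, grouped by the labelled titles and genotypes. The authors made stranded total RNA libraries and deposited 1 table of raw read counts per gene, from STAR alignment to GRCm38 with GENCODE annotation, per the labels and the study's methods (the annotation release and counted strand were not given in the sources used here). All 8 columns matched a sample. Gene symbols, positions and exon lengths came from GENCODE M21 by gene ID, with 259 of 49585 IDs unmatched.

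Counts were tested with edgeR 4.0.16 in R 4.3.3 (TMM, filterByExpr by genotype, quasi-likelihood F test, 1 fit of all livers, Benjamini-Hochberg over 16496 genes), and SE is the absolute log2 fold change divided by the square root of F. Each count was divided by its library's DESeq2 1.42.0 size factor for the normalized values printed, and TPM uses union exon length. Calls needed a log2 fold change of 1 or more in size and an adjusted p not above 0.05. Tested on simulated data for LP245/+ against LP+/+ over 16496 genes, the fit recovered 200 of 200 genes changed by a log2 fold of 2, with 9 false calls. The changed genes were drawn only from those above a minimum mean count. Recovery of smaller changes, or of changes in genes of lower count, was not tested. No separate count was made for genes as variable as Cyp4a14, whose SE in that comparison was 1.02. The recovery therefore does not show how readily a change in such a gene would be called in these livers.

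The 36 genes and all lists were chosen with earlier results of these data known, so neither is independent of them. Values in every liver are given for the Cyp4a genes, for the member of highest level in each role and for members with an unadjusted p below 0.05. Acot3, Ehhadh, Abcd2, Cd36, Decr2, Pex11a and Vnn1 were added after their values were seen. In the other pathway lists, Ppara and genes of smallest p are named, and some listed genes are not reported here.

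Library totals of 26304526 to 31370714 put a floor of 3 counts at 9.56e-06% to 1.14e-05% of a library (counting error alone). No pair of libraries agreed within sampling noise (lowest chi-square per gene 18.4 over 28 pairs). Alternatives were DESeq2, other scalings and filters, only the genotypes compared, the library series as a covariate, the replicate number as a block, summed near-identical genes, each liver left out, and other mismatch limits for the promoter search. Protein sequences were not used here. Figures were drawn with matplotlib 3.10.9 in Python 3.11.15.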

Additional observations from a re-analysis of the deposited data

How the results depend on the processing

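The count of members past the cutoff stayed at 0 under the other scalings, the filters, DESeq2 and an adjusted p alone, and rose to 1 in LPfl/+ against LP+/+ and 3 in LP245/+ against LPfl/+ with the library series as a covariate and to 1 in LP245/+ against LPfl/+ with only these 2 genotypes fitted (Cyp4a14, log2 fold change 1.81, adjusted p 0.0417, where 0.317% of all genes passed); leaving out 1 liver gave 0, 0 to 1 and 0 in the 3 comparisons. Members at an unadjusted p below 0.05 in LP245/+ against LP+/+ were 3 with no filter (4.82% of all genes in that fit) and 9 with the series as a covariate (6.65%) (0 to 9 leaving out 1 liver), in LPfl/+ against LP+/+ 2 by DESeq2 (3.13%), 5 with no filter (5.38%) and 9 with the series (5.37%; 0 to 14), and in LP245/+ against LPfl/+ 2 by DESeq2 (4.1%), 3 with no filter (6.54%), 7 with only these genotypes (9.49%) and 14 with the series (5.27%; 0 to 7); the upper ends, and the single member past the cutoff, came from leaving out LP+/+ replicate 1. The member median with the series was 0.19 in LPfl/+ against LP+/+ and -0.37 in LP245/+ against LPfl/+, and without 1 liver -0.20 to 0.07, -0.25 to -0.01 and 0.02 to 0.18.
With the series as a covariate, the LPfl/+ comparisons rest on 1 control liver of the second series, so their counts above are not independent support. The series as a covariate reversed 9, 28 and 29 of the 36 members in LP245/+ against LP+/+, LPfl/+ against LP+/+ and LP245/+ against LPfl/+ (15.8%, 26.8% and 35.3% of all genes). Among the values given above these were, in LPfl/+ against LP+/+, Cyp4a10 (2.99), Cyp4a14 (3.89), Cyp4a12a (-0.28), Ehhadh (0.12), Acaa1b (0.14), Pex11a (0.07), Acadm (0.35), Cd36 (0.43) and Abcd2 (1.65), in LP245/+ against LPfl/+, Cyp4a10 (-3.69), Cyp4a14 (-4.91), Cyp4a12a (0.66), Acot3 (-3.28) and Ppara (-0.01), and in LP245/+ against LP+/+, Vnn1 (-0.28). Leaving out 1 liver moved Cyp4a10 from -0.71 to 0.82 in LP245/+ against LP+/+ and from -1.31 to 0.21 in LPfl/+ against LP+/+, Cyp4a32 from -0.01 to 0.77 in LPfl/+ against LP+/+, and Vnn1 from -0.28 to 0.33 in LP245/+ against LP+/+.
Replicate numbers did not pair the livers (correlations of same-numbered livers of different genotypes from -0.0823 to 0.0342). With the replicate number as a block the member medians were 0.02, -0.05 and 0.00, no call changed, and Cyp4a10 turned to 0.49 in LP245/+ against LP+/+ and 0.20 in LPfl/+ against LP+/+, and Abcd2 to 0.01 in the latter.
For the 102 other pathway genes, run after their values were seen, those at an unadjusted p below 0.05 went from 3 to 6 with no filter and 9 with the series in LP245/+ against LP+/+ (2 to 9 leaving out 1 liver), from 3 to 5 by DESeq2, 8 with no filter and 12 with the series in LPfl/+ against LP+/+ (2 to 14), and from 8 to 14 with no filter and 15 with the series in LP245/+ against LPfl/+ (3 to 14). Fgf21 in LP245/+ against LPfl/+ had an adjusted p of 1.4e-07 by DESeq2, 0.000506 with no filter and 0.0107 with only these genotypes, and 0.00583 without LP+/+ replicate 1. The promoter match was found in 1 window with 1 mismatch allowed (3.448%, against 0.554% of all windows) and in 10 with 3 (34.483% against 24.648%). Causes were not tested beyond the construction of each fit, and 2 or 3 livers a group limit what any of them can show.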
